A study of Mus musculus with 24 samples.

Results

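CD8 T cells sorted from mouse tumours 1 day after an antibody to JAML were compared with CD8 T cells sorted 1 day after an isotype control antibody. The libraries were chosen by their labels for cell type and treatment, which gave 4 anti-JAML and 4 isotype libraries, 8 of the 24 libraries of the series. Every mouse in both groups carried a B16F10-OVA tumour, a melanoma line that makes ovalbumin as a model antigen, and received 200 micrograms of antibody, so the groups differ in the antibody's target and share the tumour, the injection and the interval. Each library was made from fewer than 400 cells by Smart-seq2, which amplifies polyadenylated RNA along the whole transcript. The 4 CD8 libraries made after anti-PD-1 entered the statistical model only to estimate the spread. For strain, sex and age of the mice the sources used here give nothing. The labels do not tie each library to a mouse of its own, so every p-value reflects variation among libraries and that variation could be technical. In RNA pooled over many cells, fewer cells that express a gene and less of its RNA per cell cannot be told apart, and this holds for every difference described.

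JAML, the junctional adhesion molecule-like protein, is a cell-surface receptor of the immunoglobulin superfamily that binds the coxsackievirus and adenovirus receptor (CAR, gene Cxadr) on epithelial cells. In epithelial gamma-delta T cells its engagement recruits phosphoinositide 3-kinase (PI3K) and acts as a costimulus. CD8 T cells inside tumours range from self-renewing cells that keep the transcription factor TCF-1 (gene Tcf7) to dividing effector and exhausted cells. Antigen receptor signals drive growth, glycolysis and division and lower a set of genes for circulation and rest, among them Klf2, S1pr1 and Il7r.

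Total counts of the 8 libraries lay between 11170918 and 16977824 (median 14963264). The CD8 label held in all of them. Cd8a stood between 1070 and 1785 CPM (a gene's counts scaled to a standard library total), Cd8b1 between 663 and 1207 and Cd3e, a chain of the receptor complex, between 523 and 964. Cd4 and Foxp3, which define the other sorted population, had 0 counts in each of the 8, which allows up to 3 counts per library.

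Anti-JAML libraries 2 and 4 stood apart from the rest in measures that involve no test of genes. They were singled out with earlier results of these data known. Pearson's correlation of log2 CPM over genes was 0.875 to 0.897 between isotype libraries and 0.876 between anti-JAML libraries 1 and 3. Between anti-JAML libraries 2 and 4 it was 0.751, the lowest value within either group. Genes of the mitochondrial genome took 6.89% of library 4, against 2.44% to 3.54% in the other anti-JAML libraries and 2.88% to 3.87% after isotype. Library 2 held 402 CPM of Lyz2, the lysozyme of macrophages and monocytes, where the other 7 libraries held 8.88 CPM or less. Of the 19 listed macrophage and monocyte markers 10 were measured well enough to test. The summed level of all 19 was 1294 to 1942 CPM after isotype and 1049 to 2057 CPM after anti-JAML, so the list as a whole overlapped. This sum and those of the marker lists that follow include every listed marker, tested or not. Haemoglobin Hbb-bs reached 241 CPM in anti-JAML library 2, 114 CPM in anti-JAML library 4 and 128 CPM in isotype library 3, and was at 1.20 CPM or less in the others. Defining markers of B cells (Ms4a1), NK cells (Ncr1), dendritic cells (Flt3) and neutrophils (S100a8) were at 0 in every library. The summed NK list (6 of 10 markers tested) lay at 85.9 to 105 CPM after isotype and 90.8 to 206 CPM after anti-JAML, the B-cell list (4 of 10) at 373 to 433 CPM and 277 to 826 CPM, and the dendritic list (8 of 14) at 259 to 1076 CPM and 210.1 to 551 CPM. Melanoma markers (7 of 12) lay at 21.6 to 84.5 CPM and 35.4 to 102.5 CPM, gamma-delta markers (4 of 8) at 53.2 to 139 CPM and 68.8 to 189 CPM, and CD4 and regulatory T-cell markers (7 of 9), several of them shared with CD8 cells, at 797 to 956 CPM and 552 to 1179 CPM. Stroma and endothelium (2 of 12) lay at 15.6 to 29.4 CPM and 14.7 to 89.7 CPM, and erythroid markers (4 of 7) at 0 to 263 CPM and 0.304 to 486 CPM. In all of these lists the groups overlapped. Whether these other-cell transcripts bear on the differences was not tested. Where the fold change of a gene named below moved by over 1.5 times when libraries 2 and 4 were left out, the value without them is given too.

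The same libraries also differed by transcript length. When genes were split into 10 equal classes by the length of their exons, the median difference from the isotype mean ran in anti-JAML library 2 from -0.96 on the log2 scale in the shortest class to 0.44 in the longest. In anti-JAML library 4 it ran from -0.56 to 0.44, while in anti-JAML library 1 it stayed between -0.06 and 0.15 and in library 3 between -0.10 and 0.23. Isotype libraries stayed between -0.08 and 0.09. Over the 4 libraries the median log2 fold change was -0.30 in the shortest class and 0.36 in the longest, and without libraries 2 and 4 it was -0.08 and 0.16. Gene families of short transcripts, such as ribosomal proteins, were lower over the 4 libraries, and those of long ones, such as chromatin regulators, were higher. For such families the median is also given relative to genes in the same class of exon length. Exon length here counts every annotated exon of a gene, so it can exceed that of the transcript present. Whether transcript length bears on the values was not tested.

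**Figure D1:**
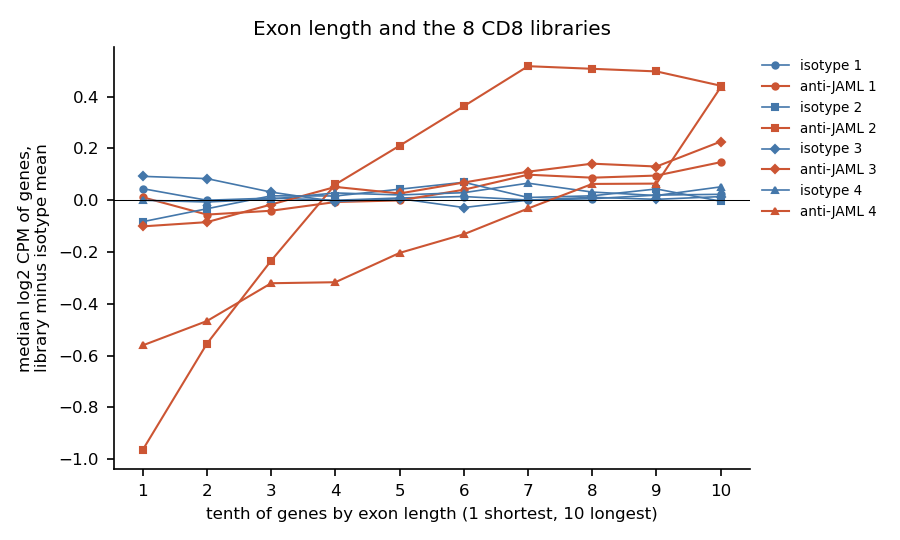
Median over genes of log2 CPM in each CD8 library minus the isotype mean (vertical axis), for 10 classes of genes by exon length (horizontal axis), isotype in blue and anti-JAML in red. Anti-JAML libraries 2 and 4 start at -0.96 and -0.56 in the shortest class, and both reach 0.44 in the longest.

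Across all genes, the comparison asked which transcripts of tumour CD8 T cells differ a day after the antibody. Of 12648 genes tested with edgeR, 0 were higher (0%) and 0 were lower (0%) at an adjusted p under 0.05, and the smallest adjusted p was 0.0955. At an unadjusted p under 0.05 there were 867 higher genes (6.85%) and 616 lower genes (4.87%). All 4 anti-JAML libraries lay above all 4 isotype libraries for 411 genes (3.25%) and below them for 649 genes (5.13%). Fold changes were positive for 55.3% of genes and negative for 44.7%, with a median log2 value of 0.09. DESeq2, another count model, called 161 genes higher (1.27%) and 54 lower (0.427%), and 168 of these 215 had groups that did not overlap. On simulated counts, 26.7% of DESeq2 calls in this comparison were genes left unchanged, against 5.1% of edgeR calls. There edgeR recovered 23% of 2-fold changes and 70% of 4-fold changes, and DESeq2 41% and 88%. Most 2-fold changes were thus missed by edgeR, and its 0 calls do not show that no gene differed. Without anti-JAML libraries 2 and 4 DESeq2 called 82 genes. limma-voom, fitted to all 12 CD8 libraries as in the main fit, called 0, with 636 higher and 922 lower at an unadjusted p under 0.05. Without anti-JAML library 3 the edgeR count of lower genes at that p was 931, and without libraries 2 and 4 the counts were 532 higher and 406 lower.

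No gene passed the main test, and the values that follow describe differences of individual genes that did not reach its threshold. The direction of the excess depended on how abundant a gene was. Among 694 genes with a mean log2 CPM of 8 or more the median log2 fold change was -0.33, with 24 higher and 157 lower at an unadjusted p under 0.05. Among 2620 genes with a mean log2 CPM of 2 to 4 the median was 0.30, with 191 higher and 25 lower. The split of genes at that p was 58.5% higher in the main fit, and it was 40.8% with limma-voom, 50.2% with the number of detected genes as a covariate and 46.9% with the replicate number as a term. The median log2 fold change of all genes was -0.05 with limma-voom, where the medians of the inhibitory receptor, ribosome biogenesis, sterol, Myc and BCL2 lists had the opposite sign to those given here.

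**Figure D2:**
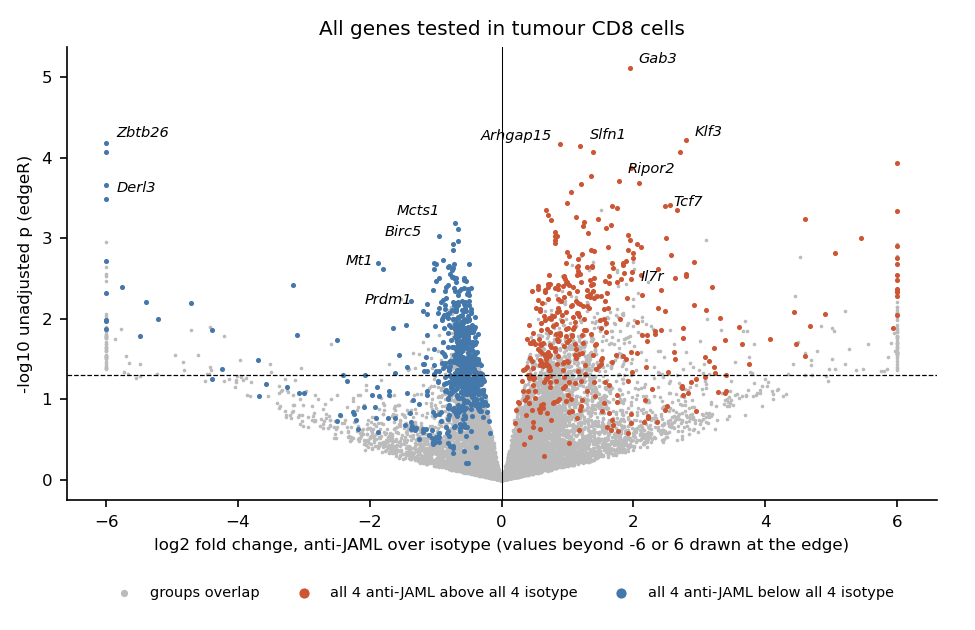
Log2 fold change of anti-JAML over isotype (horizontal axis, values beyond -6 or 6 drawn at the edge) against -log10 of the unadjusted edgeR p (vertical axis) for the 12648 genes tested in CD8 cells. Red points are the 411 genes with all 4 anti-JAML libraries above all 4 isotype libraries, blue points the 649 below, and the dashed line marks an unadjusted p of 0.05.

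Gab3, an adaptor protein that links surface receptors to PI3K and other signalling enzymes, had the smallest p of all genes. It lies on the minus strand of mm10 chromosome X, from 74966843 to 75085458. Gab3 stood at 14.97, 15.6, 12.98 and 15.7 CPM in isotype libraries 1 to 4 and at 62.05, 73.6, 48.8 and 43.01 CPM in anti-JAML libraries 1 to 4. Every anti-JAML library was well above the narrow isotype range, and libraries 1 and 2 were the highest. The log2 fold change was 1.94 ± 0.28 (SE, edgeR adjusted p = 0.0955, DESeq2 adjusted p = 2.08e-08), and 1.91 without anti-JAML libraries 2 and 4.

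Klf3, a zinc-finger repressor of the Krüppel-like family found in resting lymphocytes, lies on the plus strand of chromosome 5, from 64803388 to 64832901. Its levels were 8.64, 9.55, 14.6 and 18.4 CPM after isotype and 76.4, 185, 53.4 and 41.9 CPM after anti-JAML. The groups did not overlap, and library 2 was far above the other anti-JAML libraries. The log2 fold change was 2.80 ± 0.49 (edgeR adjusted p = 0.134), and 2.34 without libraries 2 and 4. Slfn1, a Schlafen family gene that is abundant in quiescent T cells, lies on chromosome 11, from 83116849 to 83122670 on the plus strand, at 68.6, 68.3, 81.6 and 67.2 CPM after isotype and 222, 159.6, 138 and 129 CPM after anti-JAML. Here library 1 was the highest and library 4 the lowest of the anti-JAML group, still above all isotype values. Its log2 fold change was 1.19 ± 0.21 (edgeR adjusted p = 0.134), and 1.34 without libraries 2 and 4, so that it did not lean on the libraries that stood apart.

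Arhgap15, which switches off the GTPase Rac, was at 126, 112, 146 and 119.98 CPM after isotype and 209.7, 196, 237 and 286 CPM after anti-JAML, a log2 fold change of 0.88 ± 0.16 (edgeR adjusted p = 0.134). Fech, the ferrochelatase that inserts iron into haem, was at 19.4, 18.9, 20.96 and 21.1 CPM and 46.01, 47.7, 52.98 and 64.1 CPM in the same order, with a log2 fold change of 1.39 ± 0.25 (edgeR adjusted p = 0.134). Both genes had isotype values within a narrow band and no overlap. Without libraries 2 and 4 their log2 fold changes were 0.83 and 1.30. The erythroid marker Hbb-bs was at 241 CPM in anti-JAML library 2, 114 CPM in library 4, 1.20 CPM in library 1 and 0 in library 3. After isotype it was at 128 CPM in library 3 and 0 in libraries 1, 2 and 4. Whether erythroid transcripts bear on the Fech difference was not tested.

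Atf7ip, a partner of the histone methyltransferase SETDB1, stood at 61.8 to 91.6 CPM after isotype and 152 to 229 CPM after anti-JAML (log2 fold change 1.35 ± 0.26, edgeR adjusted p = 0.185). Ripor2, which affects the polarity and migration of T cells, stood at 20.4, 29.7, 38.3 and 32.9 CPM and 61.8, 190.2, 66.9 and 98.6 CPM. Its log2 fold change of 1.78 ± 0.35 (edgeR adjusted p = 0.185) was 1.09 without libraries 2 and 4. Fchsd2, an F-BAR protein of the endocytic machinery, and Zfp346, a zinc-finger protein that binds double-stranded RNA, had log2 fold changes of 1.96 ± 0.37 and 2.71 ± 0.49 (edgeR adjusted p = 0.17 and 0.134) with no overlap of groups. Slc15a2, a transporter of short peptides, had 0 counts in the 4 isotype libraries together and 2.59, 11.6, 2.13 and 52.2 CPM after anti-JAML, at least 302-fold higher against a floor of 3 counts over the isotype group, with library 4 carrying most of its reads. The edgeR log2 fold change, which rests on 0 isotype counts, was 11.03 with all libraries and 8.185 without libraries 2 and 4.

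A second set of higher genes was read at a mean log2 CPM of at least 5 with no overlap between groups and the largest fold changes. Of its 10 genes 5 are on the resting, memory and stem-like list, and Ripor2, given above, is another of the 10. Tcf7, which encodes TCF-1, stood at 16.7, 19.2, 48.7 and 56.3 CPM after isotype and 93.1, 363, 97.4 and 230.5 CPM after anti-JAML. Isotype libraries 3 and 4 were about midway between isotype libraries 1 and 2 and anti-JAML libraries 1 and 3. The log2 fold change was 2.48 ± 0.53 (edgeR adjusted p = 0.224), and 1.44 without libraries 2 and 4. Il7r, the receptor chain for the survival cytokine interleukin 7, had the same split within the isotype group, with 18.98, 27.8, 77.5 and 75.9 CPM, and stood at 219, 265, 125 and 182 CPM after anti-JAML. Its log2 fold change was 1.98 ± 0.54 (edgeR adjusted p = 0.295), and 1.78 without libraries 2 and 4.

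Klf2, a Krüppel-like factor that activates genes of exit into lymph, stood at 18.4, 9.55, 42.96 and 24.1 CPM after isotype and 61.4, 215, 61.004 and 76.2 CPM after anti-JAML. S1pr1, the sphingosine 1-phosphate receptor that mediates this exit, was at 32.2, 31.8, 53.2 and 108 CPM and 193, 409.6, 141 and 156 CPM. In both genes library 2 was the highest of all and the lowest anti-JAML library was within 1.5 times the highest isotype library. Their log2 fold changes were 2.12 ± 0.58 and 1.998 ± 0.50 (edgeR adjusted p = 0.295 and 0.29). Without libraries 2 and 4 the values were 1.37 and 1.57.

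Itgb7, the integrin beta-7 chain used in homing to the gut and in binding E-cadherin, was highest by far in library 2 and next in library 4. It stood at 24.1, 24.2, 27.8 and 18.3 CPM after isotype and 33.1, 451, 29.4 and 73.01 CPM after anti-JAML, and its log2 fold change of 2.63 ± 0.73 (edgeR adjusted p = 0.295) was 0.94 without library 2, 2.85 without library 4 and 0.41 without both. Cd83, a surface protein induced in activated lymphocytes, was highest in library 4 at 76.2, 133, 61.98 and 256 CPM, against 27.7, 25.8, 44.4 and 38.9 CPM after isotype (log2 fold change 1.95 ± 0.47, edgeR adjusted p = 0.275), and its log2 fold change was 1.02 without libraries 2 and 4. Samd3, a sterile alpha motif protein, was higher in all 4 libraries at 66.97, 60.1, 44.6 and 107 CPM against 10.9, 15.9, 11.7 and 27.1 CPM, with a log2 fold change of 2.09 ± 0.41 (edgeR adjusted p = 0.185) and 1.77 without libraries 2 and 4. Klhl6, an adaptor for a ubiquitin ligase in lymphocytes, completed the set with a log2 fold change of 1.91 ± 0.45 (edgeR adjusted p = 0.275), or 1.1 without libraries 2 and 4.

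**Figure D3:**
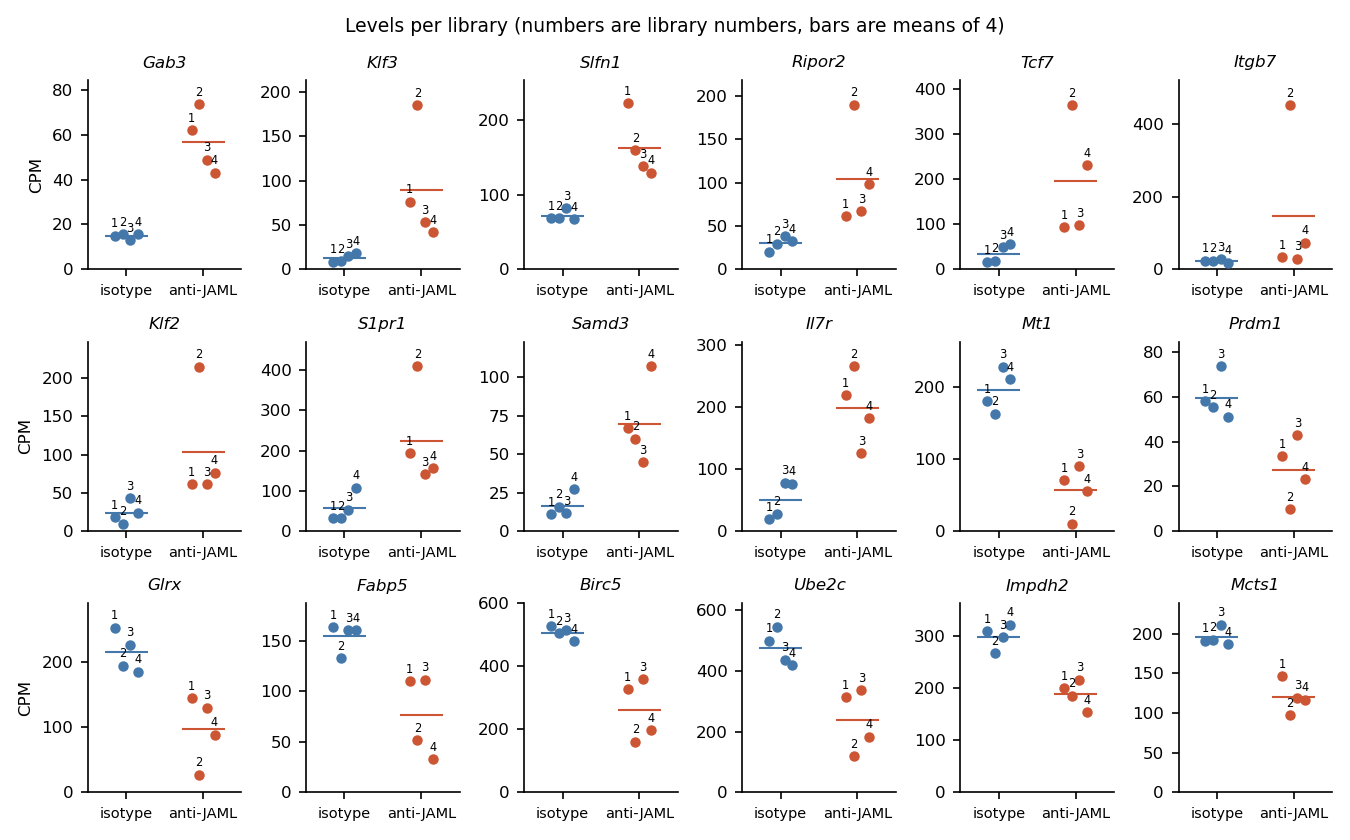
CPM (vertical axes, from 0) of 18 genes in isotype (blue) and anti-JAML (red) libraries of CD8 cells, with library numbers above the points and bars at the mean of 4. In every panel the groups do not overlap, and for Itgb7, Klf2 and S1pr1 anti-JAML library 2 lies far above the other 3.

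Because several of these higher genes are on the resting list, the promoters of the named genes were read for short motifs of factors known to act in resting or activated T cells. RefSeq windows on GRCm38.p6, from 250 bases before to 50 after a transcript start, matched 32 of the 39 genes named by smallest p or largest fold, with 19 windows of 14 higher genes and 20 windows of 18 lower genes. The KLF motif CCCCACCC on either strand was in 6 of the 19 windows of higher genes and 1 of the 20 of lower genes, against 9.99% of 32851 windows of all genes. The forkhead motif TGTTTAC was in 1 and 2 windows (3.65% of all windows), and the TCF and LEF motifs CTTTGAT in 0 and 2 (3.73%) and CTTTGAA in 1 and 0 (5.14%). The AP-1 motif TGACTCA was in 0 and 2 windows (5.2%), which are overlapping windows of Glrx, and the E-box CACGTG in 1 and 2 (7.15%). A match is a run of letters and not a shown binding site. The windows of Klf3, Tcf7 and Itgb7 are printed as examples of higher genes that carry the KLF letters, and that of Prdm1 as a lower gene with the forkhead letters. Fchsd2, Klhl6 and Slc15a2, also higher, carry the KLF letters too. The lower gene Knl1, not printed, carries both the KLF and the forkhead letters. Printed windows are on the gene's strand, 5′ to 3′, with every match to a listed motif, on either strand, in capitals.
Klf3, chr5:64803271-64803570, plus strand: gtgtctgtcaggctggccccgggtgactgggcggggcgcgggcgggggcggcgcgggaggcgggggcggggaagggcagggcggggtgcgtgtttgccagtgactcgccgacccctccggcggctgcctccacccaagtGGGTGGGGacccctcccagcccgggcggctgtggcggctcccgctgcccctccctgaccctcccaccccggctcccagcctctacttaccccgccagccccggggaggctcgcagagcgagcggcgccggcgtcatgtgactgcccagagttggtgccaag
Tcf7, chr11:52282546-52282845, minus strand: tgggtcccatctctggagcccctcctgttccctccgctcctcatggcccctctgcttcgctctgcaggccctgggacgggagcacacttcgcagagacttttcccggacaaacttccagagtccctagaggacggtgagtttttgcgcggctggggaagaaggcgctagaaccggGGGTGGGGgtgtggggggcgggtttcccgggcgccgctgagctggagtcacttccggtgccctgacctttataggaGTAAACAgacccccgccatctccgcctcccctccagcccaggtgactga
Itgb7, chr15:102231886-102232185, minus strand: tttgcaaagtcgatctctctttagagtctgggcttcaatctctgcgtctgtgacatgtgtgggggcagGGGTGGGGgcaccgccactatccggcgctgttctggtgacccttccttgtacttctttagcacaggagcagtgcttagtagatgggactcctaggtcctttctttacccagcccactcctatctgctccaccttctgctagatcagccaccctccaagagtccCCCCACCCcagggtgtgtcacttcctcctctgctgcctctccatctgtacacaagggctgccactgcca
Prdm1, chr10:44458699-44458998, minus strand: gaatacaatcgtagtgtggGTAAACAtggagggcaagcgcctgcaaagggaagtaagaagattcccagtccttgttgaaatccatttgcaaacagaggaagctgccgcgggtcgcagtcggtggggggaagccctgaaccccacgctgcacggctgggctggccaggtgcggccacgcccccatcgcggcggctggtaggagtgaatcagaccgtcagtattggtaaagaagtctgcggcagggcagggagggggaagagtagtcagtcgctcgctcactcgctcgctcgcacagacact
In these windows the KLF letters begin 111 bases before the start of Klf3, 75 bases before that of Tcf7, and 182 and 19 bases before that of Itgb7. The forkhead letters begin at position 2 of the Tcf7 transcript, counted from 1 at the start, and 231 bases before the start of Prdm1. A further Tcf7 window, and those of Klf2 and Il7r, held none of the motifs.

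The 10 lower genes with the smallest p had varied functions. Zbtb26, a zinc-finger transcription factor, stood at 3.83, 4.89, 4.86 and 4.45 CPM after isotype and had 1 read in the 4 anti-JAML libraries together, 248 reads against 1. That ratio was 275 after scaling, with an exact 95% counting interval from 48.98 to 10920. The edgeR log2 fold change was -7.55, and -6.86 without anti-JAML libraries 2 and 4. Derl3, which helps to remove misfolded proteins from the endoplasmic reticulum (ER), had 1.604, 2.09, 6.04 and 1.44 CPM after isotype and 0 counts after anti-JAML, at least 57.4-fold lower against a floor of 3 counts over the group. Both genes were low throughout, and intervals and floors cover counting error only. Tmprss6, a membrane serine protease, was also low, at 15.9, 18.3, 23.9 and 20.5 CPM and 8.21, 4.54, 4.32 and 4.38 CPM (log2 fold change -1.87 ± 0.49, edgeR adjusted p = 0.29).

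The abundant members of this set had small differences with tight isotype values. Mcts1, a factor that helps ribosomes to recycle and restart, stood at 191, 192, 211 and 187 CPM after isotype and 146, 97.4, 119 and 117 CPM after anti-JAML. Impdh2, the rate-limiting enzyme of guanine nucleotide synthesis, stood at 308, 267, 297 and 321 CPM and 199, 185, 216 and 153 CPM. Neither gene's groups overlapped, and the log2 fold changes were -0.70 ± 0.16 and -0.66 ± 0.15 (edgeR adjusted p = 0.246 and 0.262), or -0.55 and -0.52 without libraries 2 and 4. Sla2, an adaptor that dampens T-cell receptor signals by removing the receptor from the surface, was lower at 115 to 164 CPM against 214 to 268 CPM, with a log2 fold change of -0.66 ± 0.16 (edgeR adjusted p = 0.275). Psph, the last enzyme of serine synthesis, stood at 54.8 to 94.99 CPM against 124 to 134 CPM, and the beta-tubulin gene Tubb4b at 209.9 to 309 CPM against 352 to 476 CPM.

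Of these 10 genes, Birc5 and Knl1 act in cell division. Birc5, which encodes survivin, a subunit of the complex that guides chromosomes to the spindle, stood at 528, 504, 514 and 479.8 CPM after isotype and 328, 161, 359.8 and 197 CPM after anti-JAML. Libraries 2 and 4 were the lowest, but libraries 1 and 3 were also below every isotype library. The log2 fold change was -0.95 ± 0.23 (edgeR adjusted p = 0.275), and -0.56 without libraries 2 and 4. Knl1, a kinetochore scaffold, had a log2 fold change of -0.89 ± 0.23 (edgeR adjusted p = 0.29).

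A second set of lower genes was read by the same rule as the second set of higher genes, at a mean log2 CPM of at least 5 with no overlap and the largest fold changes. Ube2c, which works with the anaphase-promoting complex in mitosis, is in this set. It stood at 499, 545, 437 and 419 CPM after isotype and 314, 118, 337 and 183 CPM after anti-JAML (log2 fold change -0.995 ± 0.28, edgeR adjusted p = 0.297), and at a log2 fold change of -0.54 without libraries 2 and 4. Mt1, the metal-binding protein metallothionein 1, stood at 180.3, 163, 229 and 211 CPM after isotype and 70.2, 10.2, 89.96 and 55.01 CPM after anti-JAML, a log2 fold change of -1.80 ± 0.48 (edgeR adjusted p = 0.29) and -1.29 without libraries 2 and 4. Prdm1, which encodes the effector and exhaustion factor BLIMP-1, stood at 58.1, 55.4, 73.99 and 51.3 CPM and 33.6, 9.67, 42.9 and 23.1 CPM. Its log2 fold change was -1.13 ± 0.35 (edgeR adjusted p = 0.33), and -0.64 without libraries 2 and 4. In both genes library 2 was the lowest, and no anti-JAML library reached the isotype range.

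Glrx, the glutaredoxin that reverses protein glutathionylation, and Gldc, a subunit of the glycine cleavage system, shared this pattern. Glrx was at 252, 194, 226 and 185 CPM after isotype and 144, 27.03, 129.9 and 88.5 CPM after anti-JAML, and Gldc at 197, 177, 244 and 209 CPM and 144, 12.9, 102 and 104 CPM. Fabp5, a carrier of fatty acids, stood at 164, 133, 160.5 and 161 CPM and 110.3, 52.01, 112 and 32.97 CPM. Their log2 fold changes were -1.14 ± 0.37, -1.19 ± 0.51 and -1.01 ± 0.35 (edgeR adjusted p = 0.341, 0.403 and 0.353), and -0.64, -0.75 and -0.47 without libraries 2 and 4. The short genes for histones H4c4 and H1f5 and for the RNA polymerase subunit Polr2l had log2 fold changes of -1.13 ± 0.60, -1.03 ± 0.27 and -1.03 ± 0.40 (edgeR adjusted p = 0.479, 0.29 and 0.377), and -0.46, -0.64 and -0.45 without libraries 2 and 4. In library 2, H4c4 was at 10.3 CPM and Polr2l at 15.7 CPM, far under the other anti-JAML libraries. Mettl21a, a lysine methyltransferase of chaperones, closed the set at a log2 fold change of -1.03 ± 0.27 (edgeR adjusted p = 0.29).

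The gene lists are described by role, from the receptor inwards. For each, members higher or lower at an unadjusted edgeR p under 0.05 are counted, to be read against 6.85% and 4.87% of all genes, and the median log2 fold change is set beside 0.09 over all genes. Where members without overlap are counted, those counted lay on the side of the list's median. These counts are to be read against 3.25% of all genes above the isotype range and 5.13% below it. Jaml itself, the gene of the antibody's target, stood at 7.57, 7.302, 20.8 and 5.96 CPM after isotype and 23.7, 67.7, 14.5 and 24.6 CPM after anti-JAML. Anti-JAML library 3 was below isotype library 3, so the groups overlapped, and the log2 fold change was 1.64 ± 0.53 (edgeR adjusted p = 0.339) or 0.87 without libraries 2 and 4. The RNA level does not report on the antibody's binding. Cxadr, the ligand, was read at 1.51 to 3.91 CPM after isotype and 0 to 2.21 CPM after anti-JAML. Pdcd1, which encodes the inhibitory receptor PD-1, was at 827, 961, 684 and 688 CPM and 696, 648, 706 and 277 CPM, with library 4 alone far lower (log2 fold change -0.44 ± 0.31, edgeR adjusted p = 0.604, and -0.17 without libraries 2 and 4).

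Genes of proximal T-cell receptor signalling leaned higher. Of 29 tested members 24 had positive fold changes, 9 were higher and 1 was lower at an unadjusted p under 0.05, and the median was 0.37. Rasgrp1, which activates Ras downstream of the receptor, stood at 60.9, 52.2, 75.8 and 43.02 CPM after isotype and 90.8, 230.0, 128 and 96.9 CPM after anti-JAML, with no overlap (log2 fold change 1.23 ± 0.28, edgeR adjusted p = 0.254). Txk, a Tec family kinase, had a log2 fold change of 1.07 ± 0.28 (edgeR adjusted p = 0.29), or 0.66 without libraries 2 and 4. The lower member was Sla2, described above. Without libraries 2 and 4 the median was 0.12, with 4 members higher and 1 lower. Against genes of like exon length it was 0.16 with all libraries.

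Of 24 genes of PI3K and adaptor signalling, 6 were higher and 0 lower at that p, with a median of 0.35. They include brakes as well as enzymes of the pathway. After Gab3 came Pik3ip1, an inhibitor of PI3K on resting T cells, at 6.77, 7.86, 13.7 and 16.9 CPM after isotype and 28.7, 166, 21.1 and 38.8 CPM after anti-JAML, and Inpp4b, a phosphatase that removes a PI3K product, at 49, 51.1, 53.6 and 67.9 CPM and 80.3, 198, 122 and 92.97 CPM. Both stood higher in every anti-JAML library, with library 2 the highest. Their log2 fold changes were 2.49 ± 0.59 and 1.15 ± 0.31 (edgeR adjusted p = 0.275 and 0.292), and 1.14 and 0.87 without libraries 2 and 4. The list's median then was 0.06, with 3 members higher and 1 lower. Against genes of like exon length it was -0.0033 with all libraries.

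The resting, memory and stem-like list was the most displaced of the pathway lists, with 18 of 18 members positive, 11 higher at an unadjusted p under 0.05, 7 with groups that did not overlap and a median of 1.54. Its score, the mean log2 CPM of the members, was 4.56, 4.49, 5.31 and 5.61 in isotype libraries 1 to 4 and 6.16, 7.42, 5.84 and 6.23 in anti-JAML libraries 1 to 4. Every anti-JAML library was above every isotype library, and isotype libraries 3 and 4 were nearer to the anti-JAML values than isotype libraries 1 and 2. Without libraries 2 and 4 the median was 1.05, with 16 of the 18 positive and 6 higher.

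Genes of quiescence and growth arrest moved with them. Of 23 members 21 were positive, 11 were higher and 0 lower, 8 did not overlap, and the median was 0.81. Without libraries 2 and 4 it was 0.40, with 6 higher and 0 lower. Btg1, an antiproliferative factor that promotes mRNA decay in naive T cells, stood at 177, 244, 270.2 and 239 CPM after isotype and 430.4, 709.6, 441 and 563 CPM after anti-JAML (log2 fold change 1.21 ± 0.24, edgeR adjusted p = 0.185). Slfn2, which holds T cells in quiescence, stood at 159, 194, 202 and 191 CPM and 373, 392, 280.2 and 259 CPM (log2 fold change 0.81 ± 0.19, edgeR adjusted p = 0.275), and 0.81 without libraries 2 and 4. The other members higher at that p were Slfn1, Zfp36l2, Tsc22d3, Zfp36l1, Pdcd4, Ypel3, Klf13 and the cell cycle inhibitors Cdkn1b and Cdkn2d.

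**Figure D4:**
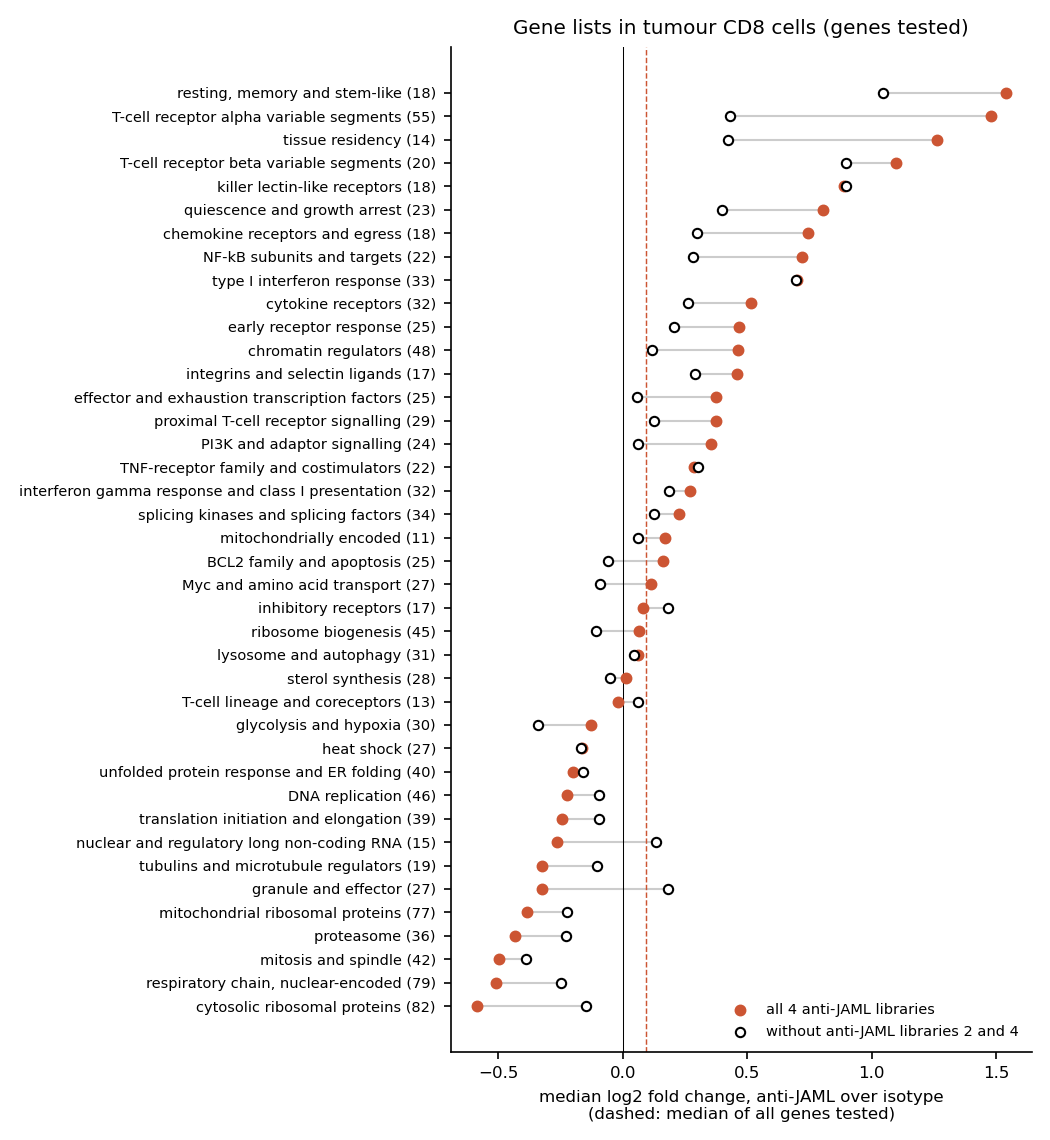
Median log2 fold change of the reported lists with at least 10 genes tested (horizontal axis, number of genes tested in brackets), with all 4 anti-JAML libraries (red) and without anti-JAML libraries 2 and 4 (open circles). Lists run from -0.59 for cytosolic ribosomal proteins to 1.54 for resting, memory and stem-like genes, and the dashed line is the median of all genes, 0.09.

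Receptors for migration were higher in part. Of 18 chemokine receptors and egress receptors 6 were higher and 1 was lower, with a median of 0.74 and 0.30 without libraries 2 and 4. Cxcr3, which leads effector cells to inflamed tissue, stood at 105, 115, 113 and 121 CPM after isotype and 232, 260.3, 167 and 159 CPM after anti-JAML. Ccr2, a receptor for monocyte-attracting chemokines, stood at 8.64, 19.4, 19.4 and 10.95 CPM and 53.02, 24.4, 23.8 and 51.9 CPM. Their groups did not overlap, with log2 fold changes of 0.85 ± 0.27 and 1.39 ± 0.40 (edgeR adjusted p = 0.339 and 0.301). Ccr2 is also listed as a monocyte marker, and whether monocyte transcripts bear on its level was not tested. The one lower member was S1pr5, another sphingosine 1-phosphate receptor. Of 17 integrins and selectin ligands 4 were higher, which were Itgb1, Itgb7, Itgal and Itgax, a dendritic cell marker. Itgb1, the beta-1 integrin chain, stood at 157, 200.03, 178 and 256 CPM and 308, 626, 339 and 295 CPM (log2 fold change 0.99 ± 0.25, edgeR adjusted p = 0.29).

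Tissue residency genes were divided. Of 14 members 9 were positive, 4 were higher and 1 was lower, and the median of 1.26 was 0.42 without libraries 2 and 4. The higher members were Rgs10, Inpp4b, Itgb7 and Cd69, and the lower one was Litaf. Rgs10, which shortens G-protein signals, stood at 13.3, 14.4, 19.02 and 20.7 CPM and 39.3, 49.2, 32.9 and 53.5 CPM (log2 fold change 1.37 ± 0.36, edgeR adjusted p = 0.29). S1pr1 and Klf2, which resident cells are known to lose, were higher at the same time.

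Cytokine receptors and NF-kB genes leaned higher. Of 32 cytokine receptor genes 27 were positive, 7 were higher and 0 lower, with a median of 0.52. Without libraries 2 and 4 the median was 0.26, with 2 higher and 0 lower. After Il7r, the leading member was Ifnar2, a chain of the type I interferon receptor, at 21.3, 17.8, 22.1 and 23.05 CPM and 30.9, 63.4, 34.7 and 38.3 CPM (log2 fold change 0.99 ± 0.28, edgeR adjusted p = 0.298, and 0.64 without libraries 2 and 4). Among 22 NF-kB subunits and targets 19 were positive, 10 were higher, 0 lower, and 6 did not overlap, with a median of 0.72. Rela, the p65 subunit, stood at 58.6, 79.3, 75.5 and 88.6 CPM and 108, 139, 109 and 175 CPM, and Ikbke, a kinase of the pathway and of interferon induction, at 16.04, 9.15, 13.9 and 15.3 CPM and 28.02, 63.5, 19.8 and 27.4 CPM. Without libraries 2 and 4 the list's median was 0.28, 19 members were positive and 3 were higher, a smaller median in the same direction. The log2 fold changes of Rela and Ikbke were 0.81 and 1.35 with all libraries and 0.53 and 0.82 without those libraries.

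Early genes of receptor signalling were mixed. Of 25 members 3 were higher, 1 was lower and the median was 0.47, or 0.20 without libraries 2 and 4. Egr1, induced within minutes by receptor signals, stood at 17.02, 23.2, 24.2 and 25.2 CPM after isotype and 64.4, 73.6, 37.7 and 19.5 CPM after anti-JAML, with library 4 inside the isotype range (log2 fold change 1.12 ± 0.39, edgeR adjusted p = 0.353). Ier2 stood at 98.7, 101, 78.2 and 109 CPM and 149.8, 189.6, 112 and 182 CPM without overlap, and Junb was highest in libraries 2 and 4, at 381, 681, 349 and 793 CPM against 290.5 to 367 CPM. The log2 fold changes of Ier2 and Junb were 0.71 and 0.76, and 0.44 and 0.16 without libraries 2 and 4. The lower member was Fosb.

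The type I interferon response had the same median with and without the libraries that stood apart. Of 33 members 28 were positive, 10 were higher and 0 lower at an unadjusted p under 0.05, and 7 had groups that did not overlap. The median was 0.70 with all libraries and 0.70 without libraries 2 and 4, with 11 members then higher. Scores were 3.86, 3.54, 3.55 and 3.01 in isotype libraries 1 to 4 and 4.72, 4.44, 4.18 and 3.71 in anti-JAML libraries 1 to 4, so isotype library 1 overlapped with anti-JAML library 4. Irf7, the factor that amplifies interferon induction, stood at 64.3, 48.4, 46.3 and 58.2 CPM and 117, 93.8, 67.5 and 74.2 CPM, and Trim30a, an interferon-induced ubiquitin ligase, at 42.9, 45.7, 35.1 and 41.5 CPM and 71.4, 68.3, 62.3 and 71.1 CPM. Ifit3b, an antiviral effector, was less abundant, at 1.87, 6.66, 5.62 and 2.65 CPM and 27.2, 7.18, 10.5 and 42.5 CPM. Their groups did not overlap, and the log2 fold changes were 0.70 ± 0.20, 0.73 ± 0.20 and 2.38 ± 0.64 (edgeR adjusted p = 0.301, 0.295 and 0.29).

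The interferon gamma and class I presentation list held members on both sides. Its 6 members higher at an unadjusted p under 0.05 were GTPases of the interferon-inducible families, Tgtp1, Irgm2, Gbp7, Tgtp2, Iigp1 and Gbp8. Its 5 lower members were the class II transactivator Ciita and the genes Psmb10, Psmb9, Psme1 and Psme2 of the immunoproteasome and its activator. Gbp3, another GTPase of these families, had all 4 anti-JAML libraries below the isotype range. Tgtp1 stood at 19.9, 18.5, 25.8 and 39.2 CPM after isotype and 82.2, 47.8, 52.6 and 81.2 CPM after anti-JAML (log2 fold change 1.35 ± 0.34, edgeR adjusted p = 0.29). Psmb10, a catalytic subunit of the immunoproteasome, stood at 344, 323, 313 and 320.1 CPM and 285, 166, 259 and 225 CPM (log2 fold change -0.48 ± 0.17, edgeR adjusted p = 0.353), and -0.25 without libraries 2 and 4. The median over 32 members was 0.27. Without those libraries 5 members were higher and 1 was lower at that p. Tgtp1 and Tgtp2 are close copies, so reads may be split between them.

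Killer lectin-like receptors, best known from NK cells and found on activated CD8 T cells, had 17 of 18 positive fold changes and a median of 0.89, or 0.90 without libraries 2 and 4. Only 3 members were higher at that p, among them Klre1 at 18.2, 26.9, 45.6 and 22.1 CPM and 68.8, 39.3, 74.02 and 36.7 CPM, and Fcer1g, which NK cells share. The summed NK markers given above were higher in anti-JAML libraries 2, 3 and 4 than in any isotype library, with Ncr1 at 0 in all 8, and their part in this list was not tested.

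**Figure D5:**
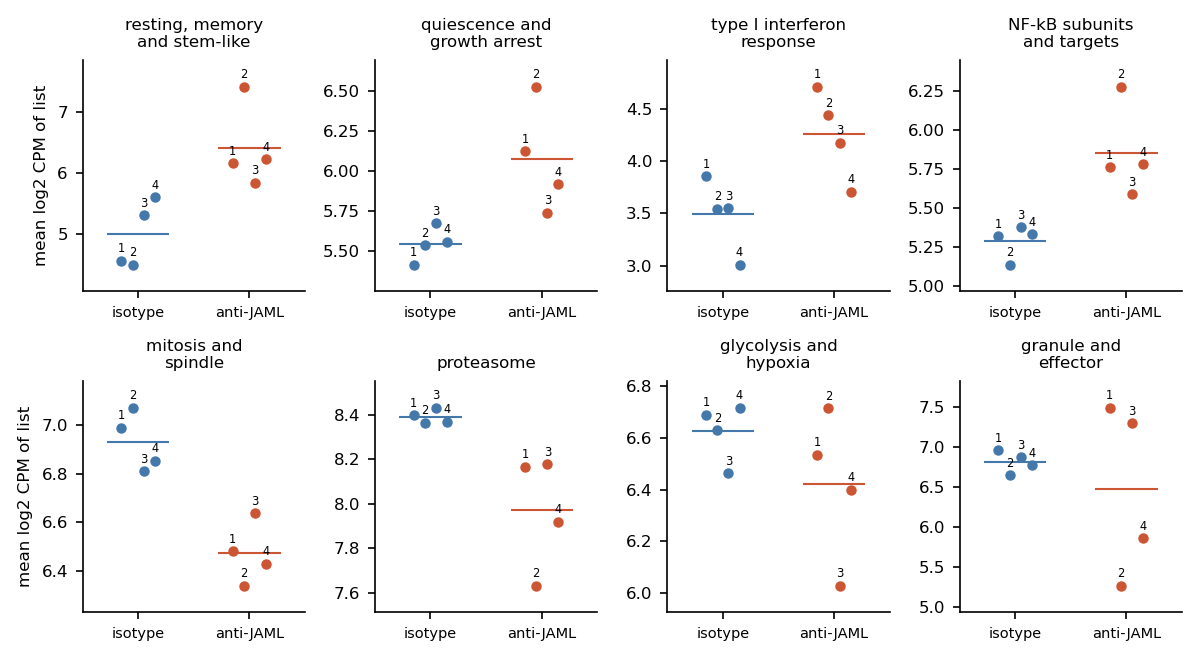
Mean log2 CPM of the tested members of 8 lists (vertical axes, which do not start at 0) in isotype (blue) and anti-JAML (red) libraries, with library numbers above the points and bars at the mean of 4. Mitosis scores lie between 6.34 and 6.64 after anti-JAML and between 6.81 and 7.07 after isotype, while granule and effector scores part anti-JAML libraries 1 and 3 from 2 and 4.

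Effector genes differed between the anti-JAML libraries more than between the groups. Of 27 granule and effector genes 9 were positive, 1 was higher and 2 were lower, and the median of -0.32 turned to 0.18 without libraries 2 and 4. Their score was 6.95, 6.65, 6.87 and 6.77 in isotype libraries 1 to 4 and 7.49, 5.27, 7.29 and 5.86 in anti-JAML libraries 1 to 4, so that libraries 1 and 3 were above the isotype range and libraries 2 and 4 below it. Gzmb, the cytotoxic protease granzyme B, stood at 2512, 2284, 1449.7 and 1282 CPM and 1658, 444, 1171 and 762 CPM (log2 fold change -0.90 ± 0.34, edgeR adjusted p = 0.363), and -0.41 without libraries 2 and 4. Gzmk, granzyme K, stood at 388, 254, 313 and 317 CPM and 203, 285, 134 and 206 CPM (log2 fold change -0.62 ± 0.24, edgeR adjusted p = 0.374), and -0.91 without them, since library 2 was its highest.

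Inhibitory receptors had a median of 0.08 over 17 members, with 1 higher and 1 lower, and Tigit was the lower one at 654, 705, 599 and 617 CPM and 503, 386, 579.7 and 326 CPM (log2 fold change -0.52 ± 0.19, edgeR adjusted p = 0.356, and -0.25 without libraries 2 and 4). Among 25 effector and exhaustion transcription factors 15 were positive, with a median of 0.38, or 0.06 without libraries 2 and 4. Of these 1 was higher at an unadjusted p under 0.05 and 3 were lower, which were Nfil3, Batf and Prdm1. Batf, an AP-1 partner needed for effector differentiation, stood at 321, 329, 296 and 324 CPM and 206, 242, 253 and 159.98 CPM, and Nfil3, a basic leucine zipper factor, at 36.2, 40.1, 34.6 and 39.7 CPM and 24.3, 24.03, 26.6 and 16.3 CPM. All 4 anti-JAML libraries were below the isotype range for both, with log2 fold changes of -0.56 ± 0.17 and -0.72 ± 0.21 (edgeR adjusted p = 0.327 and 0.303), and -0.47 and -0.56 without libraries 2 and 4.

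Genes of mitosis and the spindle had a lower score in every anti-JAML library than in any isotype library. Of 42 members 37 were negative, 20 were lower and 0 higher at an unadjusted p under 0.05, 15 had groups that did not overlap, and the median was -0.50. Scores were 6.99, 7.07, 6.81 and 6.85 in isotype libraries 1 to 4 and 6.48, 6.34, 6.64 and 6.43 in anti-JAML libraries 1 to 4. Without libraries 2 and 4 the median was -0.39, with 15 members lower and 0 higher. Against genes of like exon length it was -0.54 with all libraries and -0.44 without libraries 2 and 4. The members lower at that p include the cyclins Ccna2, Ccnb1 and Ccnb2, the kinases Cdk1, Aurka and Aurkb and the spindle proteins Tpx2, Prc1 and Nusap1. Nusap1 stood at 255, 267, 219 and 194 CPM and 178, 82.6, 141 and 134 CPM (log2 fold change -0.80 ± 0.21, edgeR adjusted p = 0.29). Mki67, a widely used marker of dividing cells, was at 159, 85.4, 88.98 and 105 CPM and 105, 87.5, 83.3 and 131 CPM and overlapped (log2 fold change -0.11 ± 0.23, edgeR adjusted p = 0.893, and -0.21 without libraries 2 and 4). Mki67 was named after its values were seen.

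DNA replication genes were lower by less. Of 46 members 33 were negative, 8 were lower and 1 was higher, with a median of -0.23. Without libraries 2 and 4 it was -0.10, with 4 lower and 0 higher. Dut, which keeps uracil out of DNA, stood at 835, 756, 874 and 768 CPM and 546, 290.3, 666 and 287 CPM (log2 fold change -0.85 ± 0.25, edgeR adjusted p = 0.303), and -0.41 without libraries 2 and 4. Ccne1, the cyclin of entry into S phase, stood at 99.3, 136, 135 and 118 CPM and 73.9, 88.05, 89.7 and 77.3 CPM (log2 fold change -0.57 ± 0.16, edgeR adjusted p = 0.295), and -0.58 without them.

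Genes of protein turnover and energy supply were lower with narrow isotype values. Of 36 proteasome genes 33 were negative, 19 were lower and 0 higher, and 18 had groups that did not overlap. The median was -0.43, or -0.23 without libraries 2 and 4, when 6 members were lower. Against genes of like exon length it was -0.33 with all libraries. Psmd6, a subunit of the regulatory cap, stood at 361, 351, 351 and 388 CPM after isotype and 285, 206, 292 and 231 CPM after anti-JAML, and Psmb4, a core subunit, at 336, 300.01, 309.97 and 298 CPM and 247, 127, 222 and 208 CPM. All anti-JAML values were below the isotype range, with library 2 the lowest. The log2 fold changes were -0.52 ± 0.15 and -0.63 ± 0.21 (edgeR adjusted p = 0.304 and 0.343), and -0.33 and -0.41 without libraries 2 and 4.

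Of 79 nuclear genes of the respiratory chain 76 were negative, 15 were lower, 31 did not overlap and the median was -0.51. It was -0.25 without libraries 2 and 4, when 4 members were lower. Against genes of like exon length it was -0.34 with all libraries. Atp5d, a subunit of ATP synthase, stood at 498, 450.4, 461 and 467 CPM and 355, 309, 374 and 318 CPM (log2 fold change -0.47 ± 0.14, edgeR adjusted p = 0.303). The 11 mitochondrially encoded genes had a median of 0.17, with 0 higher and 0 lower. Of 77 mitochondrial ribosomal protein genes 72 were negative and 19 were lower, with a median of -0.39. It was -0.22 without libraries 2 and 4, when 9 members were lower. Against genes of like exon length it was -0.34 with all libraries. Mrpl18 stood at 281, 269, 289 and 286 CPM and 230.2, 147, 197 and 182 CPM.

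Cytosolic ribosomal proteins had the lowest median of the lists with at least 10 genes tested, -0.59 over 82 genes, with 37 of them without overlap and 12 lower at an unadjusted p under 0.05. Their transcripts are among the shortest, and the value was -0.45 against genes of like exon length. It was -0.15 without libraries 2 and 4, when 0 members were lower at that p. Scores were 9.31, 9.17, 9.49 and 9.37 in isotype libraries 1 to 4 and 9.26, 7.55, 9.13 and 8.61 in anti-JAML libraries 1 to 4, so library 2 was the lowest by far and library 1 lay within the isotype range. Rpl7a stood at 1064, 975, 1030.2 and 1023 CPM and 800.4, 421, 833 and 449.9 CPM, a log2 fold change of -0.71 with all libraries and -0.32 without libraries 2 and 4. Ribosomal protein genes have many near-identical pseudogenes, which may take part of their reads. Translation factors had a median of -0.25 over 39 genes, with 8 lower and 2 higher. Without libraries 2 and 4 it was -0.10, with 1 lower and 0 higher. Ribosome biogenesis genes had a median of 0.07 over 45. Within the last list Utp14a, which processes ribosomal RNA, stood higher at 49.7, 29.96, 36.9 and 38.2 CPM against 18.3, 14.5, 13.2 and 19.3 CPM (log2 fold change 1.24 ± 0.28, edgeR adjusted p = 0.246).

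Of 30 genes of glycolysis and hypoxia 8 were lower and 1 was higher, 10 did not overlap in the lower direction, and the median was -0.13 with all libraries and -0.34 without libraries 2 and 4, when 8 were lower. Gapdh stood at 3482, 3422, 3216 and 3279 CPM after isotype and 2581, 1607, 2424 and 1672 CPM after anti-JAML, and Tpi1 at 1604, 1490.1, 1522 and 1431 CPM and 1194, 865, 1114 and 685 CPM. Bnip3, a mitochondrial protein induced by low oxygen, stood at 45.3, 60.98, 55.8 and 55.1 CPM and 32.1, 25.7, 22.1 and 41.3 CPM. Every anti-JAML library was below the isotype range for these 3 genes, with log2 fold changes of -0.69 ± 0.20, -0.65 ± 0.19 and -0.84 ± 0.24 (edgeR adjusted p = 0.298, 0.303 and 0.302). The list's median was further below 0 without libraries 2 and 4, while the values of these genes were then -0.42, -0.39 and -0.998. The members lower at that p were otherwise Aldoa, Mif, Pgam1, Pgk1 and Eno1, and the higher one was the glucose transporter Slc2a3.

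ER folding and chaperone genes leaned lower. Of 40 genes of the unfolded protein response and ER folding 8 were lower and 1 was higher, with a median of -0.20. Without libraries 2 and 4 it was -0.16, with 4 lower and 0 higher. Xbp1, the response's transcription factor, stood at 196, 219, 219 and 226 CPM and 182, 132, 131 and 144 CPM, and Sdf2l1, an ER chaperone partner, at 137, 147, 146 and 128 CPM and 91.5, 94.3, 112 and 97.6 CPM. Neither gene overlapped, with log2 fold changes of -0.54 ± 0.15 and -0.50 ± 0.15 (edgeR adjusted p = 0.297 and 0.327). Heat shock genes had a median of -0.16 over 27 members, with 5 lower and 0 higher. Without libraries 2 and 4 it was -0.17, with 0 lower and 0 higher.

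Nuclear regulators leaned the other way. Of 48 chromatin regulators 45 were positive, 12 were higher and 0 lower, with a median of 0.46. Their transcripts are long, with a median of 12706 bases of exon against 3929.5 over all genes. The median fold change was 0.16 against genes of like length. Without libraries 2 and 4 it was 0.12, with 6 members higher and 1 lower. Ncor1, a corepressor scaffold, stood at 86.9, 74.5, 84.1 and 82.6 CPM and 108, 124, 116 and 166 CPM (log2 fold change 0.65 ± 0.19, edgeR adjusted p = 0.303). Splicing kinases and factors had a median of 0.23 over 34 genes, with 8 higher and 1 lower, and of -0.02 against genes of like length. Without libraries 2 and 4 it was 0.13, with 2 higher and 0 lower. Clk1, a kinase of splicing factors, stood at 208, 214, 198 and 242 CPM and 316, 313, 256 and 351 CPM, and the lower member was the factor Srsf3.

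Of the remaining lists, BCL2 family and apoptosis genes had a median of 0.16, and Bcl2, the survival factor, stood at 10.9, 13.6, 29.3 and 42.5 CPM and 39.1, 113, 77.4 and 154 CPM with isotype library 4 above anti-JAML library 1 (log2 fold change 1.99 ± 0.52, edgeR adjusted p = 0.29, and 1.28 without libraries 2 and 4). Sterol synthesis genes had a median of 0.01, and Abcg1, which exports cholesterol, stood at 5.61, 17.3, 12.2 and 19.5 CPM and 47.1, 45.6, 43.9 and 90.3 CPM without overlap (log2 fold change 2.05 ± 0.50, edgeR adjusted p = 0.278). Medians were 0.12 for Myc and amino acid transport, -0.32 for tubulins, 0.06 for lysosome and autophagy, -0.02 for T-cell lineage and coreceptors, 0.29 for TNF-receptor family and costimulators and -0.26 for long non-coding RNA. The tubulin median was -0.10 without libraries 2 and 4. The medians of the BCL2, sterol, Myc, long non-coding, T-cell lineage and ribosome biogenesis lists changed sign without libraries 2 and 4, to -0.06, -0.05, -0.09, 0.13, 0.06 and -0.11.

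Reads of T-cell receptor variable segments were more frequent after anti-JAML. Summed over beta segments they were 182, 357, 372 and 425 CPM in isotype libraries 1 to 4 and 1524, 856, 800.1 and 755 CPM in anti-JAML libraries 1 to 4. The groups did not overlap. The constant gene Trbc2 stood at 1690.0, 1618, 1630.0 and 1468 CPM and 1518, 1267, 1358 and 1371 CPM. The constant gene Trbc1 stood at 375, 575, 665 and 577 CPM and 1237, 495, 1195 and 789 CPM, with overlap, at a log2 fold change of 0.76 ± 0.34 (edgeR adjusted p = 0.414) and an unadjusted p under 0.05. Alpha segments summed to 314, 371, 188 and 146 CPM and to 567, 299, 409.6 and 446 CPM, with overlap. Of 20 beta segments tested 7 were higher and 1 was lower, with a median of 1.098, and of 55 alpha segments 8 were higher and 1 was lower, with a median of 1.48. The medians without libraries 2 and 4 were 0.90 for beta and 0.43 for alpha segments. In the beta list Trbv29 stood at 3.65, 2.97, 9.79 and 5.897 CPM and 249, 258, 12.2 and 26.2 CPM, carried by libraries 1 and 2, and Trbv12-2 at 44.01, 39.7, 21.3 and 23.05 CPM and 49.2, 84.9, 91.8 and 56.8 CPM.

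The leading segments differed from library to library. Trbv15 made up 29.9% of beta segment reads in anti-JAML library 1, Trbv29 30.1% in library 2, Trbv31 47.4% in library 3 and Trbv16 16.4% in library 4. Among isotype libraries Trbv12-2 led library 1 with 24.2%, Trbv13-1 library 2 with 24.8%, and Trbv19 libraries 3 and 4 with 32.7% and 38.7%. The effective number of beta segments was 9.56 ± 2.64 after anti-JAML and 11.2 ± 0.91 after isotype (SD, n = 4, two-sided exact permutation p = 0.314, 0.83 adjusted over 4 tests of segment spread). The smallest p that 4 libraries against 4 can give is 0.0286. Segments of near-identical sequence may share reads.

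Whether the antibody effect differed between CD8 cells and regulatory T cells (Treg) was tested as an interaction over the 16 libraries of both populations within a fit of all 24. Of 14591 genes edgeR called 0 with a more positive effect in CD8 cells (0%) and 0 with a more negative one (0%), with 1224 at an unadjusted p under 0.05 and a smallest adjusted p of 0.0961. DESeq2 called 146 (1%) and 137 (0.939%). Without Treg isotype library 4 edgeR called 19 genes, and it called 1 without Treg isotype library 1 or Treg anti-JAML library 1 and 2 without Treg isotype library 2 or Treg anti-JAML library 2. Gab3, with a log2 fold change of 1.94 ± 0.28 in CD8 cells, had -0.44 ± 0.39 in Treg cells, a difference of 2.35 ± 0.45 (edgeR adjusted p = 0.109). For Slfn1 the values were 1.19 ± 0.21, -0.43 ± 0.22 and 1.57 ± 0.31 (edgeR adjusted p = 0.111), and for Btg1 1.21 ± 0.24, -0.33 ± 0.23 and 1.49 ± 0.34 (edgeR adjusted p = 0.343).

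These genes and the next 4 had Treg values of the opposite sign to their CD8 values, and they were chosen after the values were seen. Tcf7 had a log2 fold change of -0.63 ± 0.54 in Treg cells and a difference of 3.07 ± 0.76 (edgeR adjusted p = 0.368), and Klf2 had -0.53 ± 0.44 and 2.62 ± 0.74 (edgeR adjusted p = 0.368). Among lower genes Impdh2 had 0.36 ± 0.25 in Treg cells and a difference of -1.06 ± 0.29 (edgeR adjusted p = 0.368), and Ube2c had 0.44 ± 0.28 and -1.47 ± 0.42 (edgeR adjusted p = 0.368). edgeR called none of these 7 differences, and DESeq2 called all 7, with adjusted p from 4.88e-06 for Gab3 to 0.032 for Impdh2. On simulated counts, 57.3% of DESeq2 calls in this comparison were genes left unchanged, against 2.38% of edgeR calls. There edgeR recovered 2% of 2-fold and 39% of 4-fold changes, and DESeq2 8% and 56%. A lack of edgeR calls therefore does not show equal effects in the 2 populations. Many other genes described above had the same sign in both populations. In Treg cells the log2 fold change was 0.65 ± 0.63 for Zfp346, 0.70 ± 0.37 for Cd83, 0.47 ± 0.30 for Atf7ip and 0.44 ± 0.43 for Itgb7. Among lower genes it was -0.54 ± 0.30 for Mt1 and -0.33 ± 0.29 for Mcts1.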

How the data were processed

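The authors deposited a table of raw counts per gene and a table of TPM values (scaled by transcript length) for 24 libraries, without pooling. The tools named, per the submitters' processing notes, are STAR 2.7.3a for mm10, fastp 0.20.1, deepTools 3.3.1 and SAMtools. How reads were assigned to genes, with or without strand, is not stated in any source read, so overlapping and antisense genes cannot be separated with certainty. Of 54957 gene rows 98.64% matched GENCODE M21, which gave positions and exon lengths. TPM values were used only as a side table of levels.

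Counts of the 12 CD8 libraries (isotype, anti-PD-1, anti-JAML) were fitted with edgeR 4.0.16 (R 4.3.3, TMM normalization, filterByExpr keeping counts of at least 10, and 15 in total, robust quasi-likelihood test, Benjamini-Hochberg adjustment over all genes, threshold 0.05). Levels are CPM on TMM library sizes. The CD8 and Treg contrast used all 24 libraries. DESeq2 1.42.0, limma-voom (limma 3.58.1), other filters and scalings, a replicate block and each library left out were alternatives. The fits were tested on simulated counts with 200 genes changed by known folds. Counts were drawn from a negative binomial model with dispersions estimated by edgeR, and the changed genes had a mean count of at least 200. The simulated libraries held no length trend and none that stood apart. In the CD8 comparison the share of calls that were unchanged genes was 5.1% with edgeR, 26.7% with DESeq2 and 1.18% with limma-voom. In the CD8 and Treg difference it was 2.38% with edgeR and 57.3% with DESeq2. On these simulated counts DESeq2 calls thus held more false ones than the threshold of 0.05 implies. The share of false ones among its calls in the real counts is not known. With 4 libraries a group, the exact permutation test cannot go below 0.0286.

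The rule for genes to name took Jaml, Pdcd1, in each direction the 10 genes of smallest p, the 10 with the largest fold in each direction among those with a mean log2 CPM of at least 5 and no overlap, and up to 3 members of each list with the smallest p. It also took, in each direction, the 5 genes called by DESeq2 with its smallest adjusted p. Other list members given by name, other receptor segments and Trbc2 were chosen after their values were seen. Some genes and a list are not reported here. Clone names, pseudogenes and receptor segments were left out of the first sets. The comparison, the gene lists and the choice of libraries 2 and 4 were made with earlier results of these data known, and no list is independent support for its own direction.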

Additional observations from a re-analysis of the deposited data

Results flagged for a closer look

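Within each group of 4 libraries, a gene or list was picked out when its highest or lowest library lay apart from the others by a share of the group's range above Dixon's critical value at 95%. This held for 18 of 284 groups tested (6.3%), where chance gives about 1 in 20, and 5 of the 18 were in anti-JAML library 2 and 3 in anti-JAML library 4.

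Anti-JAML library 2 stood above the other 3 for the homing and rest genes Itgb7 (451 CPM), Klf2 (215.4 CPM), Pik3ip1 (166 CPM) and Itgb1 (625.8 CPM). Its mean log2 CPM of mitochondrial ribosomal proteins was 5.883, below the others. Anti-JAML library 4 stood apart with a low Pdcd1 (277.3 CPM), a high Abcg1 (90.27 CPM) and a low mean log2 CPM of 5.705 for T-cell lineage genes. Anti-JAML library 3 had the lowest Fchsd2 (16.24 CPM) and the only read of Zbtb26 (0.06082 CPM), and library 1 the highest Tmprss6 (8.205 CPM).

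Among isotype libraries, library 3 was the highest for Jaml (20.82 CPM), Slfn1 (81.55 CPM) and Derl3 (6.038 CPM), and its mean log2 CPM of erythroid markers was 5.131. Library 2 was the lowest for Fabp5 (132.8 CPM). Library 1 stood apart with a mean log2 CPM of 5.28 for lysosome genes and 2.06 for beta segments of the T-cell receptor.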

How the results depend on the processing

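edgeR called 0 genes in CD8 cells under every filter, scaling, covariate and left-out library that was run. limma-voom, run with the main filter and all libraries, called 0, and DESeq2 called 215. DESeq2 without anti-JAML libraries 2 and 4, without 2 and without 4, all added after seeing the data, called 82, 132 and 166. At an unadjusted p under 0.05, higher and lower genes numbered 1525 and 1111 without a filter, 532 and 406 without libraries 2 and 4, and lower genes 385 in the 8 libraries alone. DESeq2 without libraries 2 and 4 gave 466 higher genes. Leaving out 1 library gave 718 to 1062 higher and 463 to 931 lower genes. In the CD8 and Treg difference DESeq2 called 283, and leaving out 1 library gave 0 to 19. The cause was not tested.

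Same-numbered libraries did not deviate together (correlations of -0.02 to 0.03), 2 of the 4 isotype libraries correlated best with their own number, and the replicate block called 0 genes, with 780 higher and 882 lower at an unadjusted p under 0.05. Over the 25 alternatives 1 named gene changed sign: Mki67 lay between -0.25 and 0.13 with 1 library left out, the last without isotype library 1. List medians changed sign in at least 1 alternative for granule, inhibitory receptor, ribosome biogenesis, sterol, Myc, BCL2, lysosome, long non-coding RNA, T lineage, mitochondrially encoded and JAML-related genes and macrophage, B-cell, stromal and erythroid markers, and in none for the others described. At a minimum count of 50 no erythroid marker was tested. Each library came from fewer than 400 cells, so reads of low genes are not independent molecules.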
